A study of Drosophila melanogaster with 3 samples.

Results

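The Hsromega RNA and 9 genes of hnRNP-type proteins were measured in salivary glands of Drosophila melanogaster larvae. The members were chosen by gene symbol, as the long non-coding RNA of the 93D chromosome puff and RNA-binding proteins that gather with it in nuclear omega speckles. All 10 symbols matched 1 row each of a table of 17278 FlyBase gene identifiers. The study's title concerns the H3K9 methyltransferases SetDB1 and Su(var)3-9. The deposited table holds 1 group, control glands of L3 larvae with the genotype field yw and titles that name an Oregon stock, kept at 25 °C. It has 3 libraries, called replicates 1, 2 and 3 as in the titles, each from 50 glands and poly(A) RNA. With 1 group there is no treated or mutant sample to compare, so the values describe levels between genes and the spread between libraries, which may be technical since the labels name no separate cultures. P-values over libraries measure that spread alone.

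Hsromega is transcribed from a single locus into long nuclear transcripts that carry tandem repeats and into short transcripts that reach the cytoplasm. The nuclear RNA forms omega speckles, which hold hnRNP proteins that are not bound to nascent transcripts, and heat shock turns the locus into one of the largest puffs of polytene chromosomes and merges the speckles. The hnRNP proteins package pre-mRNA and act in its splicing, export, localization and translation.

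Depth was 678714 to 1185541 recovered fragments per library outside rRNA pseudogenes, which themselves took 55.0%, 41.4% and 24.6% of all fragments in replicates 1, 2 and 3. The tissue label was checked against marker lists. All 10 salivary gland markers were at 1 FPKM or more in every library, against 33.1% of the genes of the table. Their summed level was 728523 to 977002 FPKM per library. FPKM are fragments scaled by the authors to the length of the gene and to a factor for each library. These factors corresponded to 499876, 727436 and 945562 fragments in replicates 1, 2 and 3. They matched neither the totals of 1509430, 1490257 and 1571524 recovered fragments nor the fragments outside rRNA pseudogenes. The 7 fat body markers, from the tissue beside the glands, were also all at 1 FPKM or more in every library. Their sums were 2886, 4102 and 4279 FPKM in replicates 1, 2 and 3. Of other tissues' markers, 2 of 5 for hemocytes, 2 of 5 for muscle, 1 of 4 for neurons, 1 of 4 for imaginal discs and 2 of 4 for trachea or cuticle passed the limit in every library. The summed levels of these lists ran from 2.49 to 50.0 FPKM per library, and the neuronal nSyb was at 0 throughout. In such pooled glands, fewer cells of a type and less RNA per cell cannot be told apart.

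All 10 members were at 1 FPKM or more in every library, against 33.1% of the genes of the table. Their median of mean levels was 27.7 FPKM, beside 0.363 FPKM over all genes and 11.6 FPKM over the 5711 genes above the limit in every library. Of the 10 members, 7 had a mean above the median of those detected genes. Hrb87F was highest, with 87.9% of detected genes below it, and heph lowest, with 30.4% below it. All members therefore lay within a range of 10.7-fold by mean FPKM.

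Hsromega (lncRNA:Hsromega, FBgn0001234) lies on the plus strand of chromosome 3R at 21296127 to 21317836 in the BDGP6.54 annotation. It had 15.0, 14.3 and 21.7 FPKM in replicates 1, 2 and 3, a mean of 17.0 ± 4.06 FPKM (SD, n = 3). Replicate 3 was high and the other libraries lay close together. These levels rest on 163, 226 and 445 fragments, and the exact 95% counting interval of replicate 3, 19.7 to 23.8 FPKM, did not overlap those of replicates 1 (12.8 to 17.5) and 2 (12.5 to 16.3). By mean FPKM it was the seventh of the members, and by mean fragments, 278 per library, it came after Hrb27C alone. It held 19.5%, 20.8% and 26.4% of the fragments of all members in replicates 1, 2 and 3. Fragments are not scaled to length, and the exons of Hsromega cover 21710 bases, against 2358 to 12120 for the other members.

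The FPKM of Hsromega depends on which transcript is taken as its length. The annotation gives 7 transcripts with spliced lengths of 1176 to 21216 bases, whose exons together cover 21710 bases. Of these, 4 are short, at 1176, 1670, 1888 and 2776 bases, and 3 are long, at 13374, 14086 and 21216 bases. All but the transcript of 1670 bases start 494 bases after the gene's annotated start, and 3 have an intron of 712 bases. The deposited level is per base of all exons. If all fragments came from the longest transcript, the mean would be 17.4 ± 4.16 FPKM. If all came from the shortest, it would be 314 ± 75.0 FPKM, with 277, 264 and 400 FPKM in replicates 1, 2 and 3 (SD, n = 3). The table gives 1 value per gene, so the split between nuclear and cytoplasmic transcripts was not measured.

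**Figure D1:**
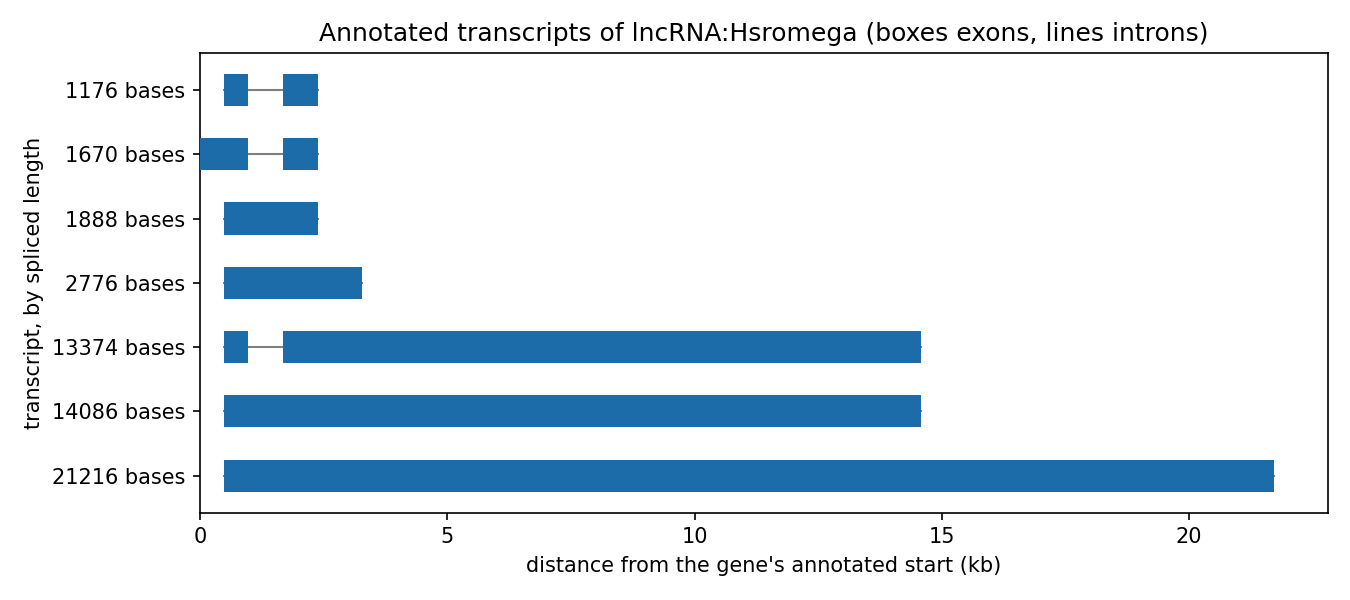
Exons (boxes) and introns (lines) of the 7 annotated Hsromega transcripts, against the distance in kb from the gene's annotated start, ordered by spliced length in bases. The 4 short transcripts, up to 2776 bases, overlap the 5′ end of the 3 long ones, where a fragment can belong to either kind. The first 494 bases are in the 1670-base transcript alone.

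Of 2721 non-coding RNA genes, 78 were detected in every library. Among all 2721, Hsromega ranked 25 by mean FPKM and 2 by mean fragments, which are not scaled to length. Only 0.691% of its exon bases lie in exons of another annotated gene, those of mir-4951 on the same strand, which was listed at 0 in all libraries. Its neighbours on either side are SIFaR, a neuropeptide receptor gene 2128 bases away, and aus, 463 bases away. SIFaR had 0, 0.547 and 0 FPKM in replicates 1, 2 and 3. aus had 23.9, 20.7 and 9.86 FPKM and was low in replicate 3, where Hsromega was high. The 5 genes nearest to Hsromega in the 3 libraries, among 3192 genes with a mean of at least 10 FPKM, were 4E-T, mRpL36, Arl6IP1, Fak and Ric. Their distances were 0.089 to 0.15, as Euclidean distance of log2(FPKM + 1) over the 3 libraries. The nearest, 4E-T, which encodes a binding protein of the cap-binding factor eIF4E, had 14.1, 14.5 and 21.8 FPKM.

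The hnRNP A/B type proteins, which carry a pair of RNA recognition motifs and a glycine-rich tail, are encoded by Hrb87F, Hrb98DE, Hrb27C and sqd. They held the 2 highest levels among the members. Hrb87F (FBgn0004237, 3R 13656846 to 13660531, minus strand), which encodes the hrp36 protein commonly used to mark omega speckles, had 79.8, 96.7 and 36.4 FPKM in replicates 1, 2 and 3. Its mean was 70.9 ± 31.1 FPKM (SD, n = 3), from 110, 194 and 95 fragments. The level in replicate 3 was low, and its counting interval of 29.5 to 44.5 FPKM lay below those of the other libraries, 65.6 to 96.1 in replicate 1 and 83.5 to 111 in replicate 2.

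Hrb98DE (FBgn0001215, 3R 28599834 to 28605777, plus strand), which encodes hrp38, had 27.0, 20.5 and 34.7 FPKM, with a mean of 27.4 ± 7.09 (SD, n = 3). Replicate 3 was its highest library, although the counting intervals of its highest and lowest libraries were separated by 0.0275 FPKM. The difference Hrb87F minus Hrb98DE was 1.53, 2.18 and 0.068 on the log2(FPKM + 1) scale in replicates 1, 2 and 3, a mean of 1.26 ± 1.08. Hrb87F was higher in 3 of 3 libraries, and the two-sided exact sign-flip test over libraries gave p = 0.25, the smallest value possible with n = 3, and 0.25 after Benjamini-Hochberg adjustment over the 2 pairs tested. Without replicate 2 the mean difference was 0.798. Per length of each gene's longest transcript it was 0.99 ± 1.08, and the order turned round in replicate 3, with 36.4 FPKM for Hrb87F against 42.0 FPKM for Hrb98DE. As a ratio of FPKM, Hrb87F over Hrb98DE was 2.96 (exact 95% interval from fragments 2.02 to 4.41), 4.70 (3.34 to 6.76) and 1.05 (0.778 to 1.42). The ratio in replicate 3 thus lay outside the intervals of the other libraries.

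Hrb27C (FBgn0004838, 2L 6920704 to 6932057, plus strand) encodes hrp48, which acts in splicing and in the localization and translation of oskar and gurken mRNA. It had 61.7, 48.5 and 56.7 FPKM, a mean of 55.6 ± 6.63 FPKM (SD, n = 3), and the most fragments of the members, 268, 307 and 466. Its libraries lay close together, and the counting intervals of replicates 1 and 2 were separated by 0.217 FPKM. sqd (FBgn0263396, 3R 13634862 to 13646304, minus strand), the squid gene, encodes hrp40, which localizes gurken mRNA in the oocyte. It had 24.3, 15.8 and 49.3 FPKM, a mean of 29.8 ± 17.4 FPKM (SD, n = 3), from 94, 89 and 361 fragments. Its replicate 3 was high, with a counting interval of 44.3 to 54.7 FPKM against 19.6 to 29.7 in replicate 1 and 12.7 to 19.4 in replicate 2.

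The difference sqd minus Hrb27C was -1.31, -1.56 and -0.20 on the log2(FPKM + 1) scale, with a mean of -1.02 ± 0.73. sqd was lower in 3 of 3 libraries (two-sided exact sign-flip test, p = 0.25, which is the lowest the design allows at n = 3, and 0.25 adjusted over the 2 pairs). Its ratio to Hrb27C was 0.394 (exact 95% interval 0.308 to 0.5), 0.325 (0.254 to 0.413) and 0.869 (0.756 to 1.0) in replicates 1, 2 and 3. sqd and Hrb27C were thus closer to equal in replicate 3. Per length of each gene's longest transcript the mean difference was -0.63 ± 0.73, and in replicate 3 sqd was then the higher, at 68.8 FPKM against 59.8 FPKM for Hrb27C.

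**Figure D2:**
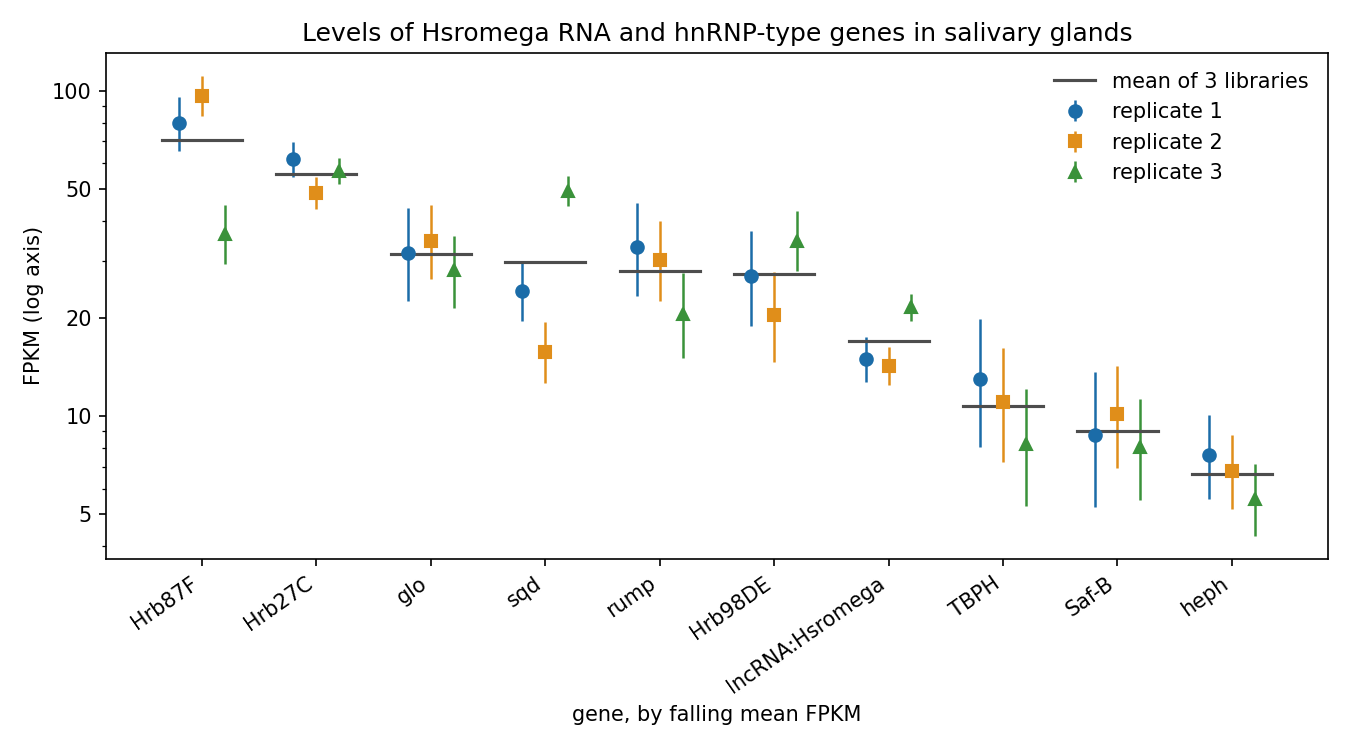
FPKM of the 10 members (log axis) in replicates 1 (circles), 2 (squares) and 3 (triangles), with exact 95% counting intervals from fragments as bars and the mean of 3 libraries as a line. Replicate 3 stands at 36.4 FPKM for Hrb87F, below the other libraries, and at 49.3 FPKM for sqd, above them.

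The summed FPKM of the 4 A/B type genes was 193, 182 and 177 in replicates 1, 2 and 3, a coefficient of variation of 4.37%. This sum was looked at after the single values were seen. Within it, Hrb87F made up 41.4%, 53.2% and 20.6%, sqd 12.6%, 8.70% and 27.8%, Hrb98DE 14.0%, 11.3% and 19.6%, and Hrb27C 32.0%, 26.7% and 32.0%. The near-equal sums depend on the scaling. As TPM, in which each library has the same sum, they were 70.5, 96.2 and 104, with a coefficient of 19.5%, and scaled to the same sum without rRNA pseudogenes they were 178, 201 and 175. The shares within a library are the same under each scaling by construction, but the shares and the sum depend on the length assumed for each gene. In replicate 1, Hrb87F was above Hrb27C as deposited, at 79.8 against 61.7 FPKM. Per length of the shortest transcript it was below, at 139 against 254 FPKM.

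**Figure D3:**
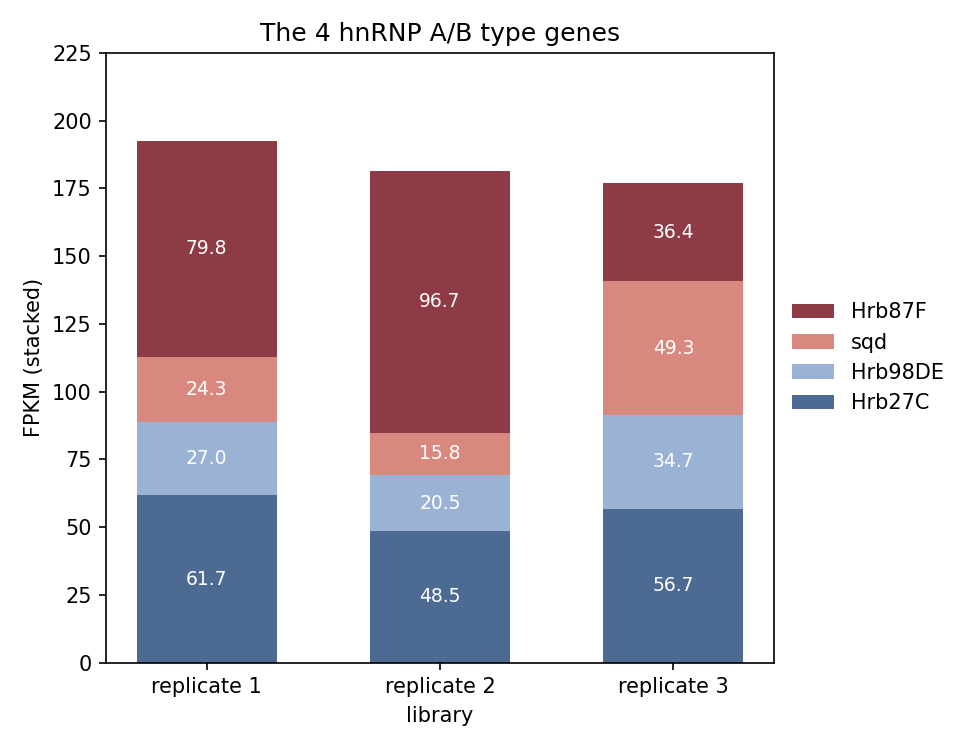
Stacked FPKM of the 4 hnRNP A/B type genes in each library, with each gene's FPKM printed in its segment. The bars end at 193, 182 and 177 FPKM, while the Hrb87F segment is 36.4 FPKM in replicate 3 and that of sqd 49.3 FPKM.

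The other members encode hnRNP proteins of other types. glo, glorund (FBgn0259139, 3R 11815206 to 11819420), encodes an hnRNP F/H protein that represses translation of nanos mRNA. It had 31.9, 34.7 and 28.1 FPKM and a mean of 31.6 ± 3.31 (SD, n = 3), with libraries close together. rump, rumpelstiltskin (FBgn0267790, 3R 9505853 to 9510324), encodes an hnRNP M protein that binds nanos mRNA. It had 33.1, 30.3 and 20.6 FPKM and a mean of 28.0 ± 6.54 (SD, n = 3), with replicate 3 low and the counting intervals of all libraries overlapping.

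TBPH (FBgn0025790, 2R 23859067 to 23862593), the fly gene for TDP-43, had 13.0, 11.1 and 8.21 FPKM, with a mean of 10.8 ± 2.43 (SD, n = 3). Saf-B (FBgn0039229, 3R 24817464 to 24822350) encodes the scaffold attachment factor B, which binds both DNA and RNA. Its levels were 8.77, 10.2 and 8.06 FPKM, with a mean of 9.00 ± 1.07 (SD, n = 3). These genes rest on 19 to 33 fragments per library, and the counting intervals of their libraries overlap. heph, hephaestus (FBgn0011224, 3R 31846987 to 32015520), encodes the polypyrimidine tract binding protein, a splicing repressor. It was lowest, at 7.59, 6.81 and 5.58 FPKM and a mean of 6.66 ± 1.01 (SD, n = 3), from 46, 60 and 64 fragments.

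In the order of mean FPKM, the members ran Hrb87F, Hrb27C, glo, sqd, rump, Hrb98DE, Hsromega, TBPH, Saf-B and heph. Of the 9 differences between neighbours in this order, 4 were larger than their SD over libraries and had the same sign in each library. These were Hrb27C over glo, by 0.80 ± 0.28 on the log2(FPKM + 1) scale, Hrb98DE over Hsromega, by 0.65 ± 0.16, Hsromega over TBPH, by 0.61 ± 0.60, and Saf-B over heph, by 0.39 ± 0.18. The other 5 were within their SD. By this cut, which is not a test, Hrb87F and Hrb27C were not separated, nor were glo, sqd, rump and Hrb98DE among themselves, nor TBPH and Saf-B. TBPH was nevertheless above Saf-B in 3 of 3 libraries, by 0.22 ± 0.27. On the log2 scale the mean of sqd minus rump was -0.038, with sqd higher in 1 library. Per length of each gene's longest transcript, Hrb87F and Hrb27C stayed first and second, at 70.9 and 58.7 FPKM, followed by sqd at 41.6. Per length of the shortest transcript, Hsromega came first, at 314 FPKM, then Hrb27C at 229, Hrb87F at 123 and sqd at 116, with Saf-B last at 18.7. The order thus depends on the length assumed. Over all exons, the longest and the shortest transcript, the rank was 7, 7 and 1 for Hsromega, 3, 4 and 6 for glo, 5, 6 and 8 for rump, and 10, 9 and 7 for heph, while sqd ranked 4, 3 and 4. The order of Saf-B over heph turned round in every library per longest transcript, with 8.77, 10.2 and 8.06 FPKM for Saf-B against 11.8, 10.6 and 8.71 FPKM for heph.

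The spread between libraries differed among the members. The SD of log2(FPKM + 1) was 0.80 for sqd and 0.73 for Hrb87F, and 82.8% and 79.8% of the 4113 genes with a mean of 5 to 100 FPKM had a smaller one. It was 0.15 for glo, 0.15 for Saf-B and 0.17 for Hrb27C, with 9.94%, 10.3% and 12.6% of those genes below. The remaining members, Hsromega included, had an SD of 0.19 to 0.36, under the median of 0.41 over those genes. Counting intervals of the highest and lowest libraries did not overlap for 5 of the 10 members, Hsromega and the 4 A/B type genes, against 46.3% of the 2920 detected genes with a mean of 20 fragments or more. That share of members was near the background.

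Of the 10 members, 6 were lowest in replicate 3 (Hrb87F, rump, TBPH, heph, glo and Saf-B), against 34.1% of detected genes, and 3 were highest there (sqd, Hrb98DE and Hsromega), against 41.1%. As TPM, 1 member was lowest in replicate 3, Hrb87F, against 16.3% of detected genes, and 4 were highest there, against 59.3%. TPM moved the median deviation of all detected genes to -0.32, 0.06 and 0.26 on the log2 scale in replicates 1, 2 and 3. Relative to that median, the deviation of replicate 3 was 0.82 to 0.83 for sqd, 0.32 to 0.35 for Hrb98DE and 0.31 to 0.33 for Hsromega over FPKM and the 3 other scalings. It was -0.87 to -0.81 for Hrb87F, -0.44 to -0.38 for rump and -0.37 to -0.33 for TBPH. A scaling moves all genes of a library alike, so these ranges are narrow by construction. Without subtracting the median, the deviation of replicate 3 as FPKM and as TPM was 0.86 and 1.09 for sqd, 0.36 and 0.61 for Hrb98DE, and 0.36 and 0.59 for Hsromega. It was -0.83 and -0.55 for Hrb87F, -0.40 and -0.13 for rump, and -0.33 and -0.076 for TBPH. For glo, heph and Saf-B, it turned from below 0 as FPKM to above 0 as TPM, at 0.11, 0.025 and 0.097.

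**Figure D4:**
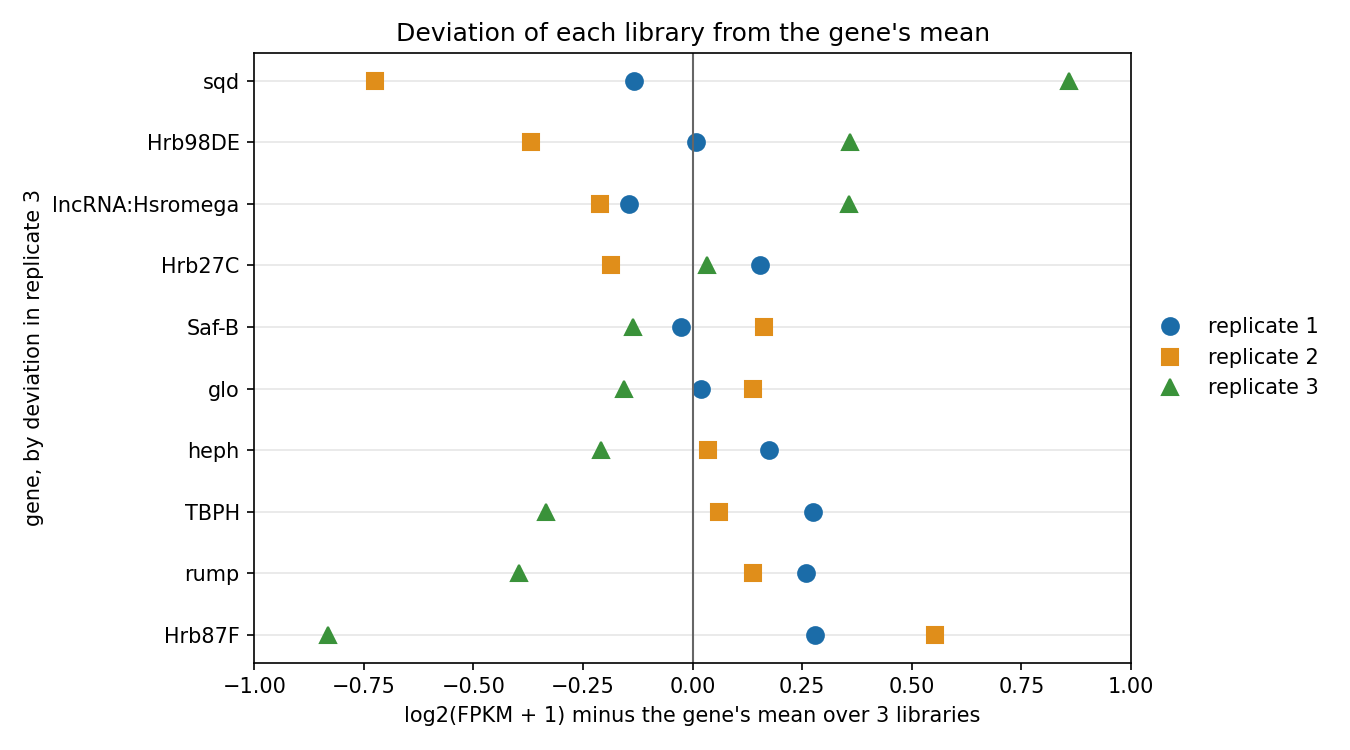
Deviation of each library from the gene's own mean of log2(FPKM + 1), for the 10 members ordered by replicate 3 (triangles). Replicate 3 runs from -0.83 for Hrb87F to 0.86 for sqd, and is above 0 for sqd, Hrb98DE, Hsromega and Hrb27C.

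Other gene groups moved in the same libraries, and their part in the differences among members was not tested. Of 12 ecdysone response genes, a list added after the values were known, 9 were lowest in replicate 3, against 34.1% of detected genes. Only 6 of the 12 were detected in every library, and the 9 include a gene with 1 fragment in each library. The list's median deviation was 0.31, 0.19 and -0.58 in replicates 1, 2 and 3. Its highest member, Eip74EF, an ETS transcription factor gene, had 92.8, 94.3 and 37.3 FPKM. The fat body list's median deviated by -0.40, 0.015 and 0.48, with 4 of 7 genes highest in replicate 3 (41.1% of detected genes) and 3 in replicate 2. Its gene of highest mean went the other way, at 1037, 1468 and 272 FPKM, and was the 1 gene lowest in replicate 3. Fragments of rRNA pseudogenes made up 55.0%, 41.4% and 24.6%. The salivary gland list deviated by 0.11, -0.26 and 0.018.

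By position, 8 of the 10 members lie on chromosome arm 3R, which holds 24.4% of detected genes. sqd and Hrb87F are 10541 bases apart on the same strand. In the 32030 bases from sqd to B52, the annotation has 5 genes, all protein-coding, namely sqd, rin, Rbp4, Hrb87F and B52. rin encodes the fly G3BP, Rbp4 an RNA-binding protein, and B52 an SR splicing factor. rin had 22.1, 19.3 and 23.3 FPKM in replicates 1, 2 and 3, and B52, divergent from Hrb87F across 779 bases, had 35.7, 32.8 and 32.1 FPKM. Both varied little between libraries, while sqd was high and Hrb87F low in replicate 3. Rbp4 was listed at 0 in 2 libraries and had 1.81 FPKM in replicate 2. Hrb27C likewise diverges, across 493 bases, from x16, another SR protein gene. Hrb27C had 61.7, 48.5 and 56.7 FPKM, against 4.48, 6.15 and 8.29 FPKM for x16. Of the members, 7 share no exon base with another annotated gene, and glo and rump share 1.85% and 0.551% with COX5A and CG8149, which lie on the other strand. COX5A, a respiratory chain gene, had 183, 150 and 170 FPKM, and CG8149 had 5.19, 10.7 and 14.6 FPKM.

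Genes known as partners of omega speckles or of the Hsromega RNA were all detected, 9 of 9, against 33.1% of all genes. The median level was 27.7 FPKM for the members, against 12.4 FPKM for these partners. Hsp83, which encodes Hsp90, had 109, 118 and 43.9 FPKM in replicates 1, 2 and 3, a mean of 90.5 ± 40.5 (SD, n = 3), and was low in replicate 3. Pep, which encodes a zinc finger protein of ecdysone puffs, had 44.7 ± 7.45 FPKM, and nej, the gene of the acetyltransferase CBP, 14.4 ± 3.54. Iswi, the ATPase of chromatin remodelling complexes, and Lam, a nuclear lamin gene, were lowest, at 2.58 ± 0.996 and 1.73 ± 0.833 FPKM, from 21 and 13 fragments in all. Other hnRNP-type and RNA-binding protein genes had a median of 7.31 FPKM, and 23 of 30 were detected, against the same 33.1%. hfp, the fly PUF60 gene, had 46.9 ± 17.7 FPKM, followed by Pep and by Rox8, the fly TIA-1 gene, at 37.3 ± 9.74. The neuronal fne was listed at 0, which allows up to 0.628, 0.431 and 0.332 FPKM, and bru3 rested on 1 fragment.

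SR proteins bind exonic enhancers and often act against hnRNP proteins in splice site choice. Of their list, 13 of 13 matched genes were detected in every library, against 33.1% of all genes, at a median of 15.2 FPKM. The list includes the kinase gene Doa, and Rsf1, which is also counted among the other hnRNP-type and RNA-binding protein genes. The listed kinase gene SRPK was not matched. SF2 had 41.4 ± 4.75 FPKM and B52 33.6 ± 1.90, while Srrm1, at 4.37 ± 2.58, and Rsf1, at 2.32 ± 1.10 from 8 fragments, were lowest (SD, n = 3). Hrb87F and Hrb27C, at 70.9 and 55.6 FPKM, lay above the highest SR gene by mean FPKM, while in replicate 3 Hrb87F, at 36.4 FPKM, was level with SF2 at 36.1.

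Many heat shock genes share with Hsromega the induction by heat, but the list used here also holds constitutive family members such as Hsc70-4. Of 19 matched genes, 9 were detected in every library, against 33.1% of all genes. The 6 Hsp70 genes, the most strongly heat-induced, had 0 to 3.35 FPKM in every library, with Hsp70Aa listed at 0, where a count of 0 allows 2.52, 1.73 and 1.33 FPKM in replicates 1, 2 and 3. Their copies are nearly identical, so single values are uncertain. Hsp22, whose exons lie wholly within those of another annotated gene, was also listed at 0. Hsromega was highest in replicate 3, at 21.7 FPKM, where both leading small heat shock genes were low. Of these, Hsp23 had 380, 672 and 37.1 FPKM in replicates 1, 2 and 3, and Hsp27 174, 275 and 55.1. The whole list did not share this: 7 of 19 genes were lowest in replicate 3 and 3 were highest there. Among detected genes of the table, 34.1% were lowest and 41.1% highest there, whereas the list's counts include genes not detected in every library. Hsc70-4, the constitutive family member, had 343 ± 46.1 FPKM (SD, n = 3).

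**Figure D5:**
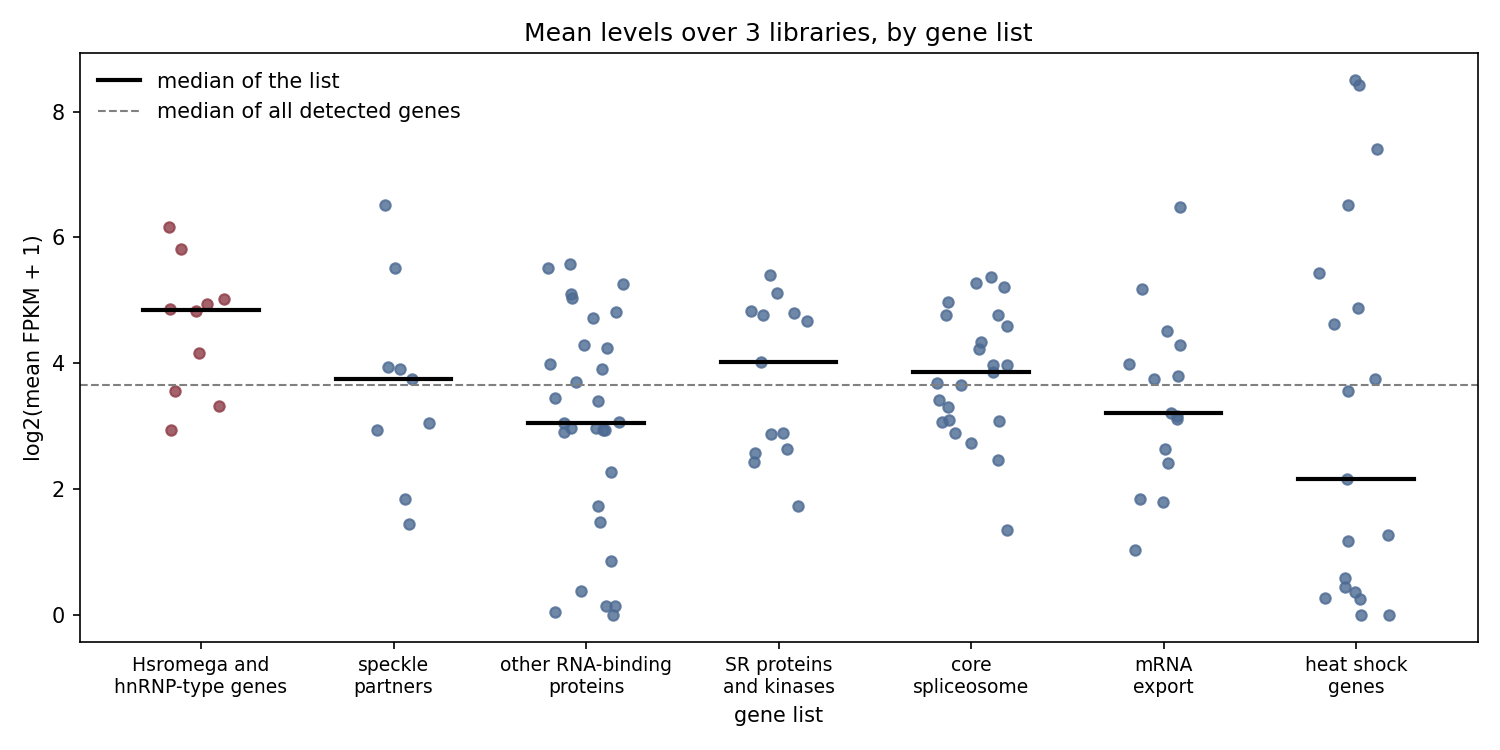
Mean level over 3 libraries, as log2(mean FPKM + 1), of each gene (points) in 7 gene lists, with the list's median as a black line and the median of all detected genes, 11.6 FPKM, as a dashed line. The members' median of 27.7 FPKM is above the dashed line, and points at 0 stand for genes listed at 0.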

How the data were processed

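The deposited values are FPKM, made by the authors, with 1 value per gene and library in 3 columns that match the sample titles by number. The submitters' processing notes name HISAT2 and DESeq without versions. The sources used here do not give the genome build, the annotation or the counting program. Strand is kept by the kit, but the counting was unstranded by the table's name, so genes overlapping on opposite strands cannot be told apart. Gene symbols and coordinates are from Ensembl BDGP6.54, release 115, which held 17142 of 17278 identifiers.

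FPKM times the summed exon length was a whole multiple of 1 step per library, within 0.01, for 98.6% to 98.7% of values above 0, which gave fragments. For glo the products were not whole, and its fragments were rounded. No count model was fitted. Exact Poisson intervals (95%) cover counting error only, and a count of 0 was taken to allow 3 fragments. In a 2000-base gene, 1 fragment is worth 1.00, 0.687 and 0.529 FPKM in replicates 1, 2 and 3. Recovery and intervals were tried on simulated counts built with the same steps and exon lengths. Their unchanged genes varied by counting error alone. The simulation therefore cannot test the lengths the authors used or a spread between libraries beyond counting.

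Levels were compared as log2(FPKM + 1), a pseudocount of 1 that understates ratios of low genes, and detection means at least 1 FPKM in every library. Members and lists were chosen with earlier results of these data known, and the lists were edited for current symbols afterwards, with 1 gene of another function removed. Named are all members, the 3 highest and 2 lowest genes of the RNA-processing and heat shock lists (of marker lists, sums are given), the 5 genes nearest to Hsromega in level, those that share exon bases with a member, and the neighbours of Hsromega, plus genes chosen after their values were seen (Hsp70 genes, rin, Rbp4, x16). A gene that this rule names is not reported here. Alternatives were other pseudocounts, limits, scalings and transcript lengths, and each library left out. No sequence is printed, since none was used here. The tools were numpy 2.4.6, scipy 1.17.1, pandas 2.3.3 and matplotlib 3.10.9 under Python 3.11.15.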

Additional observations from a re-analysis of the deposited data

How the results depend on the processing

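All 10 members were detected under limits of 0.5 and 2 FPKM, with no limit, under the 3 other scalings and with any library left out. The members' median of 4.80 on the log2 scale was 3.81 as TPM, and 4.49 to 4.86 with a library left out. The Hsromega level of 4.15 was 3.19 as TPM, 8.27 per length of its shortest transcript, and 3.97 to 4.25 with a library left out. TPM lowers all levels by construction. The differences Hrb87F minus Hrb98DE (0.80 to 1.85) and sqd minus Hrb27C (-1.44 to -0.75, with a library left out) kept the sign of their mean under the pseudocounts, scalings and transcript lengths tried and with any library left out. Per longest transcript they held in 2 of 3 libraries each. The number of members lowest in replicate 3, 6 in FPKM, was 1 as TPM. The coefficient of variation of the summed A/B type genes, 4.37%, was 19.5% as TPM, 7.65% without rRNA pseudogenes in the sum, and 1.76% to 5.96% with a library left out. The TPM sums include the rRNA pseudogenes. Of the 9 other members' levels, all moved beyond their SD as TPM. With a pseudocount of 0.01, 1 did, per longest transcript 1, and per shortest transcript 8. None did under the other scalings, a pseudocount of 0.1 or a left-out library. Scaling by the median ratio of genes between libraries could move little, since the deposited values already lay close to it. Under it Hsromega had 14.7, 14.7 and 21.1 in replicates 1, 2 and 3, against 15.0, 14.3 and 21.7 FPKM. No paired analysis was possible because the series has 1 group, so no replicate number pairs samples across groups. The counts in replicate 3, the A/B sum and the transcript lengths of members other than Hsromega were chosen after seeing the data. Differences within the counting intervals were not detectable at this depth.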

Other observations

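Of the 23 matched core spliceosome genes, 22 were detected in every library, against 33.1% of all genes. The median level was 27.7 FPKM for Hsromega and the hnRNP-type genes, against 13.5 FPKM for this list. The small Sm protein genes SmD2, SmE and SNRPG led, at 40.4 ± 18.1, 37.6 ± 16.7 and 36.2 ± 32.0 FPKM (SD, n = 3). Replicate 3 was their highest library, with 61.2 FPKM for SmD2, 56.8 for SmE and 72.3 for SNRPG, from 45, 28 and 33 fragments. Prp31 and Prp6 were lowest, at 4.49 ± 3.44 and 1.55 ± 0.270 FPKM. Of the list, 13 of 23 genes were highest in replicate 3, a count that includes a gene not detected in every library. Among detected genes of the table, 41.1% were highest there.

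Of 15 mRNA export genes, 13 were detected, against 33.1% of all genes. Of all 15, 10 were highest in replicate 3, a count that includes the genes not detected in every library. Among detected genes of the table, 41.1% were highest there. Ref1, an export adaptor gene, had 90.4, 94.2 and 81.2 FPKM in replicates 1, 2 and 3, a mean of 88.6 ± 6.67 (SD, n = 3), with libraries close together. Hel25E, the fly UAP56 gene, had 35.1 ± 10.3 FPKM and thoc7 21.9 ± 6.44. The THO complex gene thoc5 was listed at 0 in replicates 1 and 2 and had 3.12 FPKM in replicate 3, from 6 fragments, and thoc6, at 2.48 ± 2.29 FPKM, had 59.0% of its exon bases within exons of other genes.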
